A study of Mus musculus with 5 samples.

Results

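The nuclear genes of the mitochondrial respiratory chain and ATP synthase were examined in 5 Tag-seq libraries of mouse heart tissue at embryonic day 10.5 (E10.5, Theiler stage 17). They were chosen by name: protein-coding genes whose symbols start with *Nduf*, *Uqcr*, *Atp5* or *Cox* followed by a digit from 4 to 8, with *Sdha*, *Sdhb*, *Sdhc*, *Sdhd*, *Cyc1* and *Cycs*. This gave 95 of 20605 protein-coding reference genes. Of these, 36 belong to complex I, 4 to complex II, 9 to complex III, 1 encodes cytochrome c, 18 belong to complex IV and 16 to complex V. The remaining 11 are assembly factors or related proteins that carry the same prefixes.

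The wild-type libraries came from the atrioventricular canal (AVC), outflow tract (OFT), atria and ventricles of C57BL/6 embryos (C57BL/6J females in the study's methods). The fifth came from the AVC of *Twist1* knockout embryos on an ICR background (*Twist1* null AVC). Tissue of at least 3 litters was pooled for each library, and each group has 1 library, so no value has a replicate check. In Tag-seq, cDNA held on oligo(dT) beads is cut with NlaIII and the bases that follow a CATG site are sequenced. The counts are thus of tags at such sites, not of fragments along the transcript. Tags of all sites of a gene were summed, and the 3′-most site gave 72.5% (OFT) to 79.0% (atria) of the tags of these genes. The listed tags numbered 6075421 in the AVC, 5267618 in OFT, 4666514 in atria, 4223810 in ventricles and 12977237 in the *Twist1* null AVC. Levels are scaled to the total of listed tags in the library (TPM, tags per 1000000), and intervals are exact 95% Poisson intervals that cover counting error only. *Twist1* itself was at 918 TPM in the AVC, 299 in OFT, 63.4 in atria, 55.9 in ventricles and 4.55 in the *Twist1* null AVC.

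Complex I takes electrons from NADH and complex II takes them from succinate. Both pass them through ubiquinone to complex III, cytochrome c carries them to complex IV, where oxygen is reduced, and the proton gradient built on the way drives complex V, the ATP synthase. Cytochrome b of complex III, the catalytic core of complex IV and part of complexes I and V are encoded in mitochondrial DNA, and the nuclear genes described here supply the remaining subunits. Several subunits have paralogous genes with tissue-specific use, and adult heart muscle is known for its high content of all these complexes.

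The tags on which the main differences rest are shown here, from the CATG site (capitals) to the end of the read. The first base after CATG matters in what follows, because the libraries differed in the share of tags that start with T at that position.
*Atp5g1*: CATGccagtcctggtgctgga
*Atp5g2*: CATGgttctttcgtgtctcgt
*Atp5g3*, 3′-most site: CATGgaaatatatgttatttc
*Atp5g3*, next site: CATGtaacagaaattactgcc
*Atp5j*, 3′-most site: CATGaattagttgtacaacta
*Atp5j*, next site: CATGtggtaatttgtcatgaa
*Atp5b*: CATGcaggccacacaagagcc
*Ndufv1*: CATGagagctgtggccagtgt
*Sdhc*: CATGctttcaatccccttgga
*Sdhd*: CATGaagctcgaaagtattcc
*Uqcr11*: CATGttgacagacactagggc
*Cox5a*: CATGtaatagtaacttggact
*Cox8a*: CATGtattggctctgcttggt
Positions are those of exact matches to GENCODE M21 transcripts on GRCm38. The *Atp5g1* tag lies at chr11:96073042-96073062, that of *Atp5g2* at chr15:102662968-102662988 and the 3′-most *Atp5g3* tag at chr2:73908479-73908499, each in a 3′ UTR on the minus strand. The second *Atp5g3* tag is in the coding sequence at chr2:73908579-73908599. Both *Atp5j* tags are in the 3′ UTR on the minus strand, at chr16:84827907-84827927 and chr16:84827922-84827942, and the second holds the CATG of the first. The *Atp5b* tag is in the 3′ UTR at chr10:128090187-128090207 on the plus strand. The *Ndufv1* tag is coding, at chr19:4008064-4008084 on the minus strand. The other tags are in 3′ UTRs: *Sdhc* at chr1:171129664-171129684, *Sdhd* at chr9:50596698-50596718, *Uqcr11* at chr10:80403041-80403061 and *Cox8a* at chr19:7215202-7215222, all on the minus strand, and *Cox5a* at chr9:57532377-57532397 on the plus strand.

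Of the 95 genes 89 had a listed tag that matched no other gene. The main tag of a gene, that of highest mean level, lay in the 3′ UTR for 47 genes, in the coding sequence for 41 and in the 5′ UTR for 1. It started with T for 23 genes and with another base for 66. For 13 genes, *Atp5g2*, *Uqcrh*, *Uqcrb*, *Cox5b*, *Atp5o*, *Atp5l*, *Atp5f1*, *Ndufab1*, *Ndufb2*, *Ndufb8*, *Ndufc1*, *Ndufs6* and *Cycs*, over 50% of the tags also match a transcript outside the reference set, such as a processed copy, and their levels are uncertain to that extent. *Cox7b2*, *Cox8b*, *Cox8c* and *Ndufb4* had no listed tag in any library. *Cox7a2* has no usable NlaIII site in the transcripts used, and the listed tag of *Cox7c* is shared with another gene.

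The summed level of the 89 genes was highest in the ventricles. It was 69225 TPM there, 42178 in atria, 35689 in the *Twist1* null AVC, 26180 in OFT and 24976 in the AVC. Thus 6.92% of all listed tags in the ventricles and 2.50% in the AVC belonged to these genes. Summed levels without tags that start with T were still scaled to the totals of all listed tags. On that scale the ventricles were 2.47-fold above the AVC, compared with 2.77-fold over all tags. The *Twist1* null AVC was 1.43-fold above the AVC over all tags and 1.07-fold above it without T-starting tags on that scale. Such tags made up 32.4% of the null library, 22.2% of the ventricles and 13.6% of the AVC. Totals without them would therefore raise both ratios to the AVC, that of the null most.

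The complexes did not share 1 order of libraries. Complex V had the most tags in every library, with 10061 TPM in the AVC, 10301 in OFT, 20119 in atria, 34286 in ventricles and 16084 in the *Twist1* null AVC. Complex I was at 7633 TPM in the AVC, 7800 in OFT, 7455 in atria, 12269 in ventricles and 6152 in the *Twist1* null AVC, so that the *Twist1* null AVC was lowest. Complex II had 775 TPM in the AVC, 825 in OFT, 690 in atria, 1376 in ventricles and 449 in the *Twist1* null AVC. The place of the atria in both depends on the totals, since haemoglobin tags made up 22.0% of the atrial library and 0.367% of the AVC. With these out of the totals complex I was at 9555 TPM in atria against 7661 in the AVC, and complex II at 884 against 778.

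Complex III stood at 1652 TPM in the AVC, 1912 in OFT, 4690 in atria, 6302 in ventricles and 2993 in the *Twist1* null AVC. Complex IV had 3709, 3773, 8069, 13213 and 9095 TPM in the same order. In both complexes the chambers and the *Twist1* null AVC lay above the AVC and OFT. Part of that rested on tags that start with T, which gave 42.4% of complex IV tags in the AVC, 73.2% in ventricles and 66.5% in the *Twist1* null AVC. Without them, at the totals of all listed tags, complex IV was 1.66-fold higher in the ventricles than in the AVC, against 3.56-fold over all tags. Complex V kept a 3.47-fold difference against 3.41-fold over all tags. Complex III in the *Twist1* null AVC was at 0.817 times its AVC level without them on that scale, against 1.81 times over all tags. As T-starting tags took a larger share of the null library, totals without them would raise the 0.817, which is thus no sign of a lower level.

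**Figure D1:**
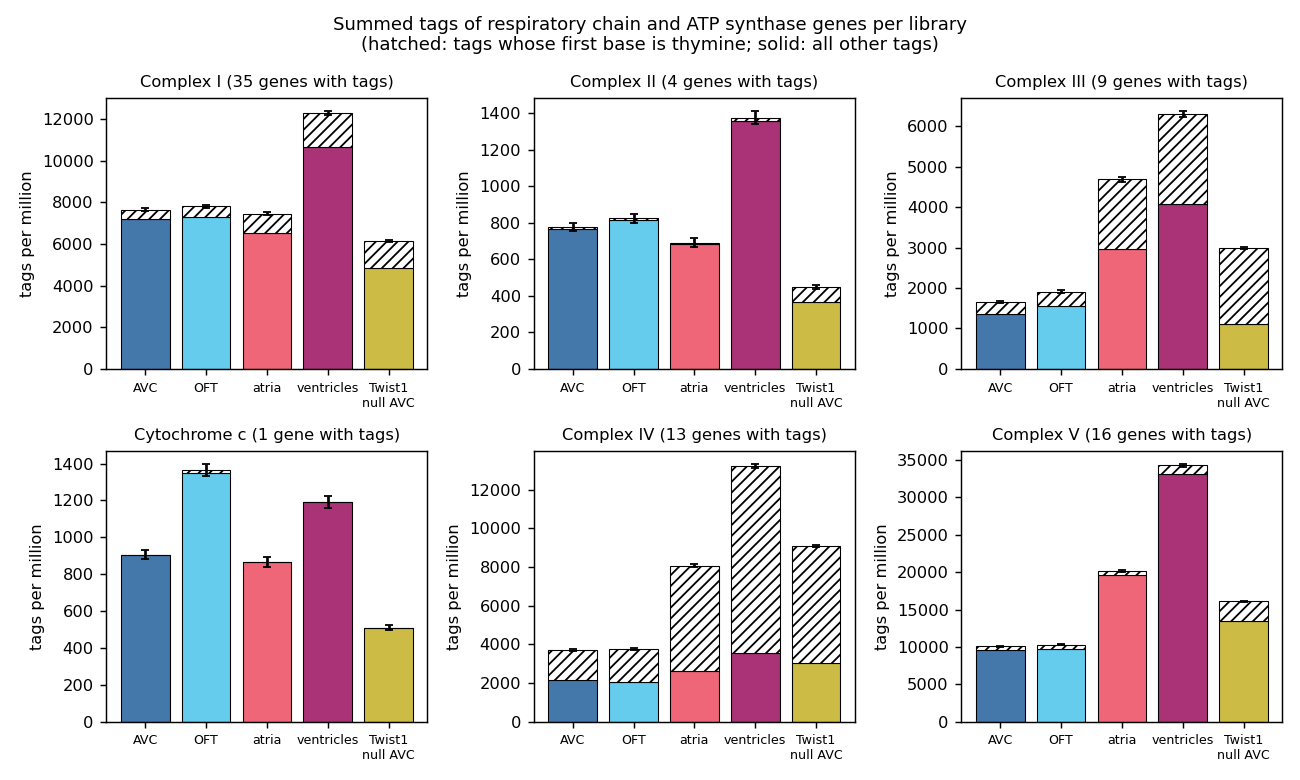
Summed TPM (vertical axes, from 0) of complexes I to V and of cytochrome c in each of the 5 libraries (bars), with 95% Poisson intervals of the sum. The hatched part is tags whose first base after the NlaIII site is T: it makes up 73.2% of the ventricular tags of complex IV and 3.48% of those of complex V.

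Cytochrome c, the mobile carrier between complexes III and IV, came from *Cycs* alone. It was at 906 TPM in the AVC, 1366 in OFT, 865 in atria, 1193 in ventricles and 510 in the *Twist1* null AVC. The OFT was highest and the *Twist1* null AVC lowest, and *Cycs* was called in none of the comparisons below. The assembly factors and related genes summed to 240 TPM in the AVC and 587 in ventricles, far under the subunit genes. *Ndufaf2*, a complex I assembly factor gene, had 37.5 TPM in the AVC, 37.2 in OFT, 128 in atria, 274 in ventricles and 14.0 in the null, and was called lower in the AVC and OFT than in the chambers. *Ndufaf5*, another, was between 20.3 and 85.5 TPM. It was called lower in the OFT than in the chambers (3.30-fold), a call lost after adjustment.

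The most abundant genes were those of the ATP synthase catalytic head and c ring. *Atp5g3*, which encodes the c subunit of the rotating ring, had 1417 TPM in the AVC, 1391 in OFT, 6038 in atria, 13130 in ventricles and 3419 in the *Twist1* null AVC. *Atp5b*, the catalytic beta subunit, had 837, 865, 5792, 6312 and 3077 TPM in the same order. *Atp5a1*, the alpha subunit, had 1295 TPM in the AVC, 1573 in OFT, 2656 in atria, 5895 in ventricles and 3138 in the *Twist1* null AVC. For all 3 genes the AVC and OFT were lower than the other libraries. The epsilon subunit gene *Atp5e* of the same complex was at 13.0 TPM in the *Twist1* null AVC and at 1.29 to 2.85 TPM elsewhere. Without tags that start with T its log2 ratio of the null to the AVC turned from 2.39 to -0.26. Levels of different genes were not read as subunit ratios.

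In complex IV *Cox7b* led, with 880 TPM in the AVC, 854 in OFT, 3998 in atria, 5874 in ventricles and 2807 in the *Twist1* null AVC. *Cox5a* had 290, 314, 926, 1794 and 1750 TPM in that order. The main tags of both genes, and that of *Cox8a*, start with T. In complex I *Ndufb5*, an accessory subunit, had 581 TPM in the AVC, 972 in OFT, 670 in atria, 1485 in ventricles and 328 in the *Twist1* null AVC. *Ndufv3*, another, had 531, 341, 407, 759 and 609 TPM in that order. In complex III *Cyc1*, the cytochrome c1 gene, was at 477 TPM in the AVC, 643 in OFT, 974 in atria, 1439 in ventricles and 448 in the *Twist1* null AVC.

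**Figure D2:**
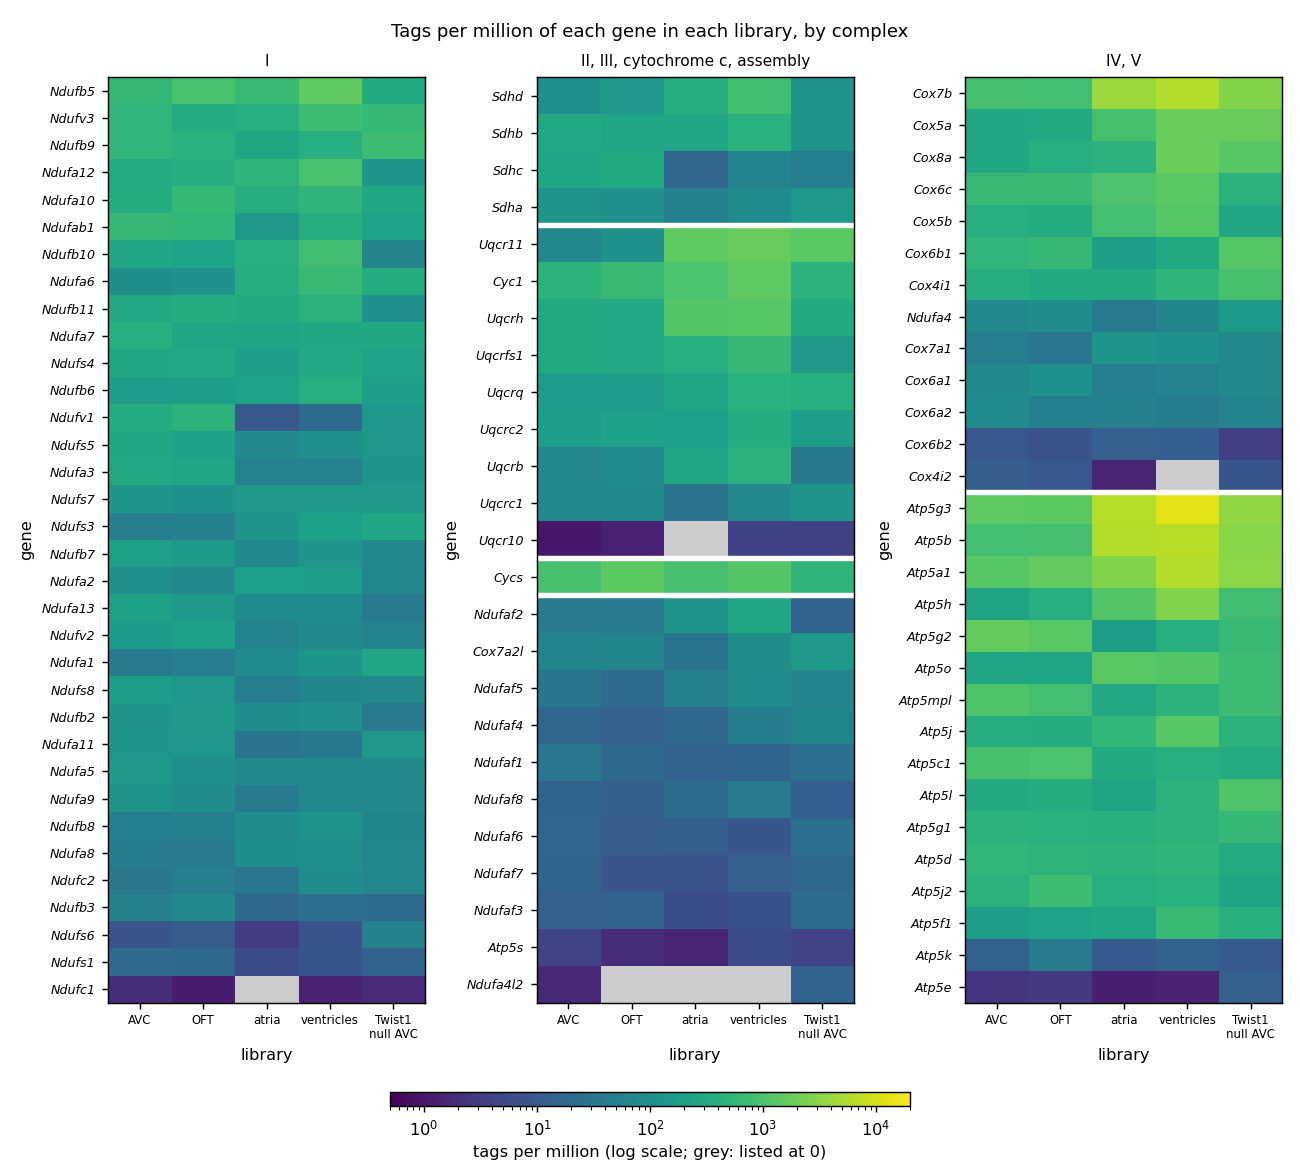
TPM of 88 of the 89 genes with tags (rows, grouped by complex and ordered by mean level) in the 5 libraries (columns), on a logarithmic colour scale with genes listed at 0 in grey. *Atp5g3*, *Atp5b* and *Cox7b* are brightest in the chambers, while *Ndufv1* is dark in the atria and ventricles at 9.64 and 20.4 TPM.

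Twist1 acts in the cushion mesenchyme of the AVC, and the *Twist1* null AVC was compared with the wild-type AVC to find genes whose level depends on it. Genotype and strain differ together between these libraries and cannot be told apart. Of 89 genes 16 were called higher in the null and 8 lower, at an unadjusted p under 0.05 in edgeR's exact test with the dispersion fixed at 0.12. Among all 12963 genes tested 11.9% were called higher and 12.7% lower by the same rule. After Benjamini-Hochberg adjustment over all genes 7 remained higher (5.06% of all genes) and 2 lower (3.93%). The median log2 ratio of the 89 genes was -0.01, and that of all genes was -0.16. A trimmed-mean (TMM) scaling added 0.24 to all log2 ratios and gave 21 higher and 4 lower, with 14.9% and 9.36% of all genes. Without tags that start with T, 10 of 82 were higher and 4 lower, with 11.2% and 13.3% of all genes. In tests without such tags the library totals left them out too, which moved the ratios of all genes. *Atp5b*, which has no such tag, went from a log2 ratio of 1.88 to 2.23.

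Counts in each direction varied by complex. Complex I had 4 genes called higher and 6 lower of 35, complex II 0 and 1 of 4, complex III 2 and 0 of 9, complex IV 3 and 0 of 13, and complex V 5 and 1 of 16. Cytochrome c was not called, and 2 of the 11 assembly and related genes were higher. The 16 higher genes split by the first base of their main tag. Among the 23 genes whose main tag starts with T, 12 were higher and 0 lower, with a median log2 ratio of 1.67. Among the other 66, 4 were higher and 8 lower, with a median of -0.42.

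The libraries differed in the same feature over all genes. Tags that start with T made up 13.6% of all listed tags in the AVC, 15.0% in OFT, 22.2% in ventricles, 32.1% in atria and 32.4% in the *Twist1* null AVC. Erythroid marker genes held 605 TPM of such tags in the AVC, 1115 in OFT, 35323 in ventricles, 155096 in atria and 15627 in the null. Over all tag types of 1 gene the median log2 ratio of the null to the AVC was 0.98 for 3822 types that start with T and -0.56 for 9075 that do not. The same held within genes. In the 12 respiratory chain genes with at least 100 tags of each kind over the pair of libraries, the T-starting tags had the higher ratio in 11, with a median difference of 3.02 on the log2 scale, *Ndufc2* being the exception. The 3′-most *Atp5g3* tag went from 1407 TPM in the AVC to 2572 in the null, whereas the T-starting tag of the next site went from 9.71 to 846. The overlapping tags of *Atp5j* behaved alike, with 357 and 290 TPM for the 3′-most tag and 1.65 and 173 TPM for the T-starting tag. In *Atp5a1* both kinds of tag had nearly the same log2 ratio, 1.31 and 1.28. The cause of these differences was not tested.

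**Figure D3:**
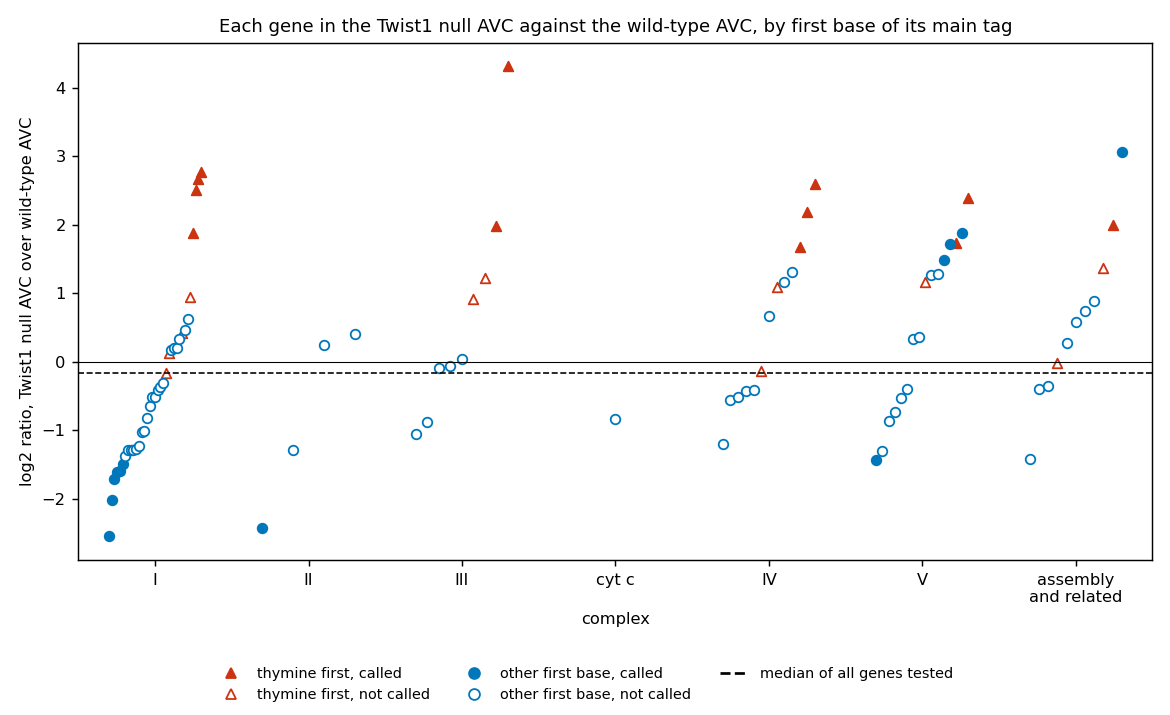
Log2 ratio of each gene in the *Twist1* null AVC over the wild-type AVC (vertical axis) by complex (horizontal axis), with triangles for genes whose main tag starts with T, circles for other genes, filled marks for genes called at an unadjusted p under 0.05, and the median of all genes tested dashed at -0.16. The filled marks above 0 are mostly triangles (12 of 16), and all 8 filled marks below 0 are circles.

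The gene with the largest rise was *Uqcr11*, a small subunit of complex III. It had 67.3 TPM in the AVC, 112 in OFT, 1423 in atria, 1685 in ventricles and 1342 in the *Twist1* null AVC. The null lay close to the chambers and far from the AVC and OFT, 19.9-fold above the AVC (edgeR exact test, p = 1.54e-07, adjusted p = 7.98e-05). All its tags start with T, so the ratio could not be checked on another tag of the gene.

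*Ndufa1*, an accessory subunit of complex I, had 37.5 TPM in the AVC and 257 in the null, 6.85-fold higher (edgeR adjusted p = 0.0122). *Cox5a* was 6.04-fold higher in the null, from 290 to 1750 TPM (edgeR adjusted p = 0.0162), but on the few tags that do not start with T it was at 1.32 and 1.31 TPM. *Ndufs6* rose from 8.23 to 52.2 TPM, *Ndufs3* from 45.8 to 260 TPM and *Cox8a* from 280 to 1273 TPM. These genes too rest on T-starting main tags.

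The 4 genes called higher whose main tag starts with another base were *Atp5b*, *Atp5h*, *Atp5o* and *Ndufa4l2*. None of their tags starts with T. Leaving T-starting tags out changed only the library totals and raised their ratios, so that all 4 kept their calls and this was no check on them. The beta subunit gene *Atp5b* had 837 TPM in the AVC and 3077 in the null, 3.68-fold higher (edgeR exact test, p = 0.0113, adjusted p = 0.0863). The stator subunit d gene *Atp5h* was at 239 and 789 TPM, 3.30-fold higher. *Atp5o*, the subunit that joins head and stator, was at 259 and 729 TPM, 2.81-fold higher. The calls of *Atp5b*, *Atp5h* and *Atp5o* did not hold after adjustment, while that of *Ndufa4l2* did. *Atp5a1* was at 1295 and 3138 TPM and was not called at the deposited totals (edgeR exact test, p = 0.0799). It was called under 6 of 16 alternatives. Among these were TMM scaling and leaving out T-starting tags (edgeR exact test, p = 0.0389 and 0.0268). At the deposited totals its log2 ratio was 1.28 both over all tags and over those that do not start with T. Its call without T-starting tags thus came from the changed totals, which raised the ratio to 1.63. *Ndufa4l2*, the hypoxia-inducible relative of the complex IV subunit gene *Ndufa4*, had 1.65 TPM in the AVC and 13.9 TPM in the null and was listed at 0 in OFT, atria and ventricles.

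Of the 8 genes called lower in the null 6 encode complex I subunits. *Ndufa13*, an accessory subunit, fell from 218 TPM in the AVC to 37.3 in the null, 5.85-fold (edgeR adjusted p = 0.0178), and was at 152 in OFT, 84.2 in atria and 88.3 in ventricles. *Ndufb10* fell from 254 to 62.6 TPM and *Ndufb2* from 124 to 37.8 TPM, and neither call held after adjustment. *Sdhc*, a membrane anchor of complex II, fell from 258 to 48.1 TPM, 5.37-fold (edgeR adjusted p = 0.0238). These 4 were also called lower without T-starting tags and after TMM scaling. *Ndufb7*, *Ndufb11*, *Ndufv2* and *Atp5c1* lost their calls without T-starting tags and under TMM scaling, where the edgeR exact p was between 0.0631 and 0.100. *Ndufb7*, *Ndufb11* and *Atp5c1* have no T-starting tags and lost the former call through the changed totals alone, *Atp5c1* going from a log2 ratio of -1.44 to -1.08. The other membrane anchor, *Sdhd*, had 103 TPM in the AVC and 122 in the null and was not called.

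Markers of other cell types also differed between these libraries. Erythroid markers summed to 2435 TPM in the AVC and 27388 in the null, led by *Hbb-y* at 598 and 15446 TPM. Cushion mesenchyme markers summed to 3484 TPM in the AVC and 1018 in the null, led by *Col3a1* at 1439 and 207 TPM, with none of 12 at 0. Cardiomyocyte markers summed to 27273 and 24328 TPM, led by *Actc1*, with none of 14 at 0. Endothelial and endocardial markers summed to 644 and 707 TPM, epicardial markers to 301 and 216 TPM, and smooth muscle and pericyte markers to 522 and 1038 TPM. The last sum was 406 and 320 TPM without T-starting tags, at totals that still held these tags, which took a larger share of the null. Of its 7 genes 1 was called higher, *Acta2*, and 2 lower. In such bulk tissue fewer cells of a type and less RNA per cell cannot be told apart, and the part of cell composition in the differences above was not tested. With haemoglobin tags taken out of the totals, 16 respiratory chain genes were called higher in the null and 7 lower, with 12.8% and 12.1% of all genes.

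The wild-type AVC was then compared with the summed atria and ventricles. The AVC was called higher for 10 of 89 genes and lower for 17, while among all 12503 genes tested 43.4% were higher and 8.12% lower. The median log2 ratio was -0.16 for the respiratory chain genes and 1.23 for all genes. The share called lower, 19.1%, was thus above the background and the share called higher, 11.2%, below it. By complex, 5 genes were higher and 4 lower in complex I, 1 and 1 in complex II, 0 and 3 in complex III, 1 and 3 in complex IV, 2 and 5 in complex V, and 1 and 1 among the assembly and related genes. TMM scaling lowered all log2 ratios by 0.95 and gave 6 higher and 37 lower, with 25.6% and 17.5% of all genes. By complex these were 2 and 12 in complex I, 1 and 1 in complex II, and 0 and 7 in complex III. Complex IV had 1 and 6, complex V 1 and 7, and the assembly and related genes 1 and 4. With 5 tags put in for each tag type not listed, the median of the respiratory chain genes was 0.92 below that of all genes, against 1.39 below it otherwise. Against the atria alone 18 were higher and 15 lower, with 45.4% and 7.16% of all genes, and against the ventricles alone 8 and 24, with 40.2% and 8.71%. Without T-starting tags 14 were higher and 17 lower of 81, with 45.6% and 8.44% of all genes.

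The OFT gave like values, but the tests share the chambers as their reference and are not independent. In the OFT 10 of 88 genes were higher (40.6% of all genes) and 18 lower (8.88%), with medians of -0.22 and 1.07. Against the atria alone 18 were higher and 14 lower (43.5% and 7.89%), and against the ventricles alone 8 and 25 (37.8% and 9.79%). TMM scaling lowered the OFT log2 ratios by 0.86 and gave 3 higher and 36 lower (26.2% and 17.7% of all genes), and without T-starting tags 14 of 79 were higher and 20 lower (42.7% and 9.95%). In level, both the AVC and OFT were below both chambers for 36 of the 89 genes and above both for 30, against 12.4% and 52.8% of all 13486 genes with tags.

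**Figure D4:**
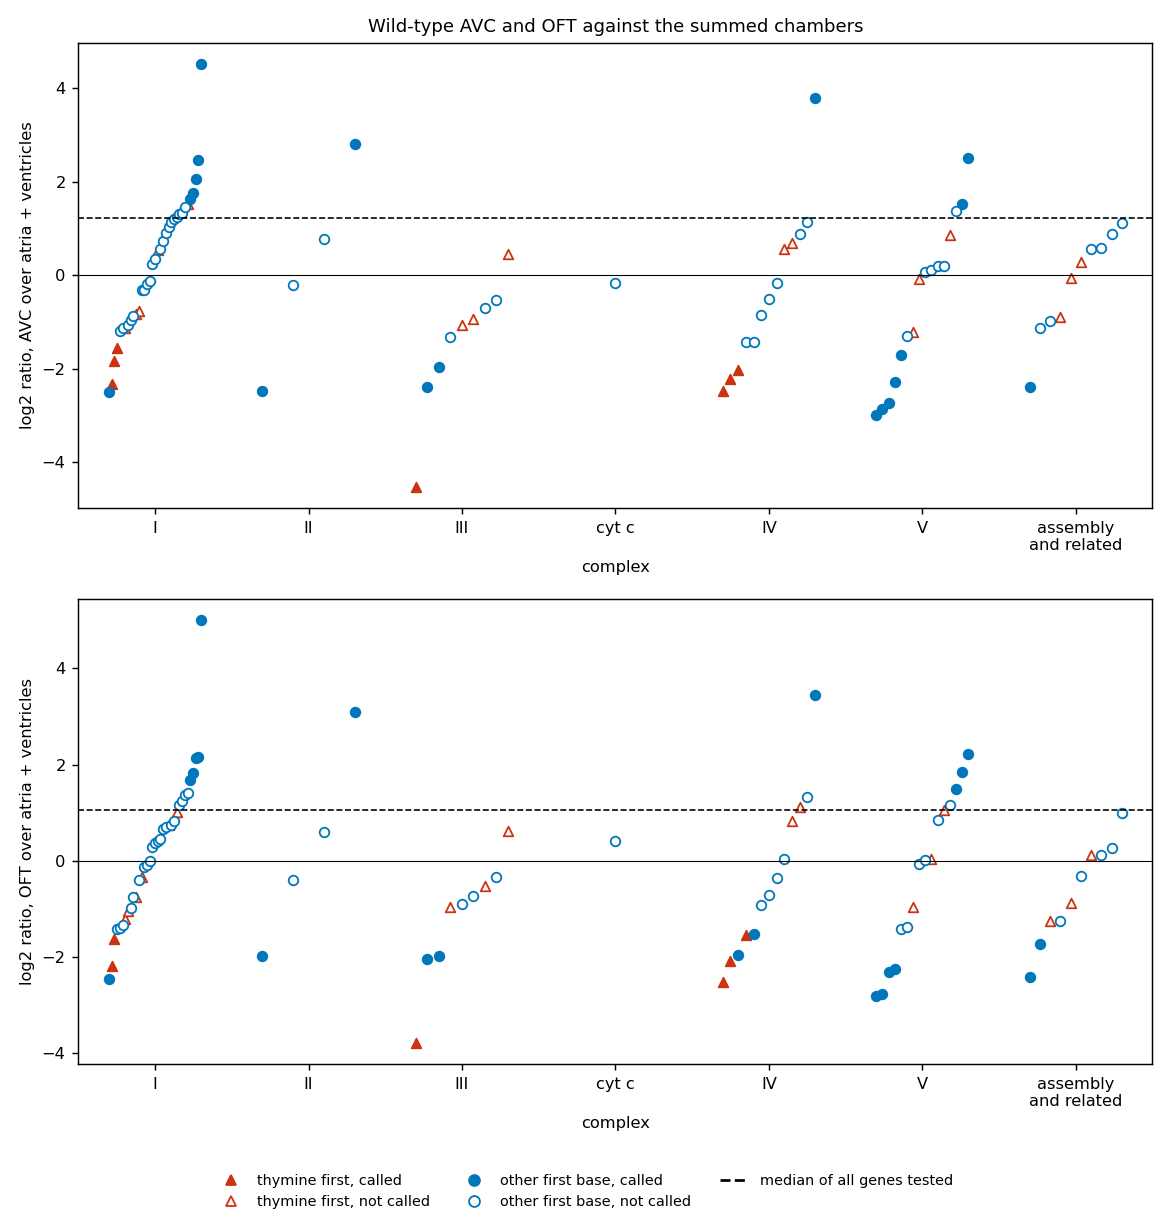
Log2 ratio of each gene in the AVC (top) and OFT (bottom) over the summed atria and ventricles (vertical axes) by complex (horizontal axes), with marks as for the null and the median of all genes tested dashed at 1.23 and 1.07. Genes with no tags on either side are left out. Most genes lie below the dashed lines. Among genes with tags on both sides *Ndufv1* in complex I is the highest mark in both panels, at 4.52 and 5.01.

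Within complex V 5 of 16 genes were called lower in the AVC, the head genes *Atp5a1* and *Atp5b*, the stator genes *Atp5h* and *Atp5o*, and *Atp5g3*. *Atp5h* had 239 TPM in the AVC, 381 in OFT, 1162 in atria and 2682 in ventricles, and was 7.87-fold lower in the AVC than in the chambers (edgeR adjusted p = 0.000823). *Atp5b* was 7.21-fold lower (edgeR adjusted p = 0.0013), *Atp5g3* 6.64-fold (adjusted p = 0.00203) and *Atp5o* 4.85-fold (adjusted p = 0.00932). These 4 genes were also called lower in the OFT, under TMM scaling and without T-starting tags. *Atp5b*, *Atp5h* and *Atp5o* have no tags that start with T, so the last setting changed only the totals and lowered their ratios. *Atp5g2* and *Atp5mpl*, a small membrane subunit gene, were called higher in the AVC. The latter was at 1087 TPM in the AVC, 842 in OFT, 298 in atria and 463 in ventricles. Its call was lost under TMM scaling and without T-starting tags. The gamma subunit gene *Atp5c1* was at 931, 1015, 322 and 400 TPM in these libraries. It was called higher in the OFT, a call lost under TMM scaling and without T-starting tags. Neither *Atp5mpl* nor *Atp5c1* has tags that start with T, so their calls without such tags were lost through the changed totals alone. The log2 ratios went from 1.53 to 1.28 for *Atp5mpl* in the AVC and from 1.50 to 1.27 for *Atp5c1* in the OFT. Both calls were also lost after adjustment.

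The *Atp5g* genes encode the same mature c subunit with different import sequences, and their shares differed between the libraries. *Atp5g2* was at 1613 TPM in the AVC, 1333 in OFT, 182 in atria, 398 in ventricles and 653 in the *Twist1* null AVC. It made up 46.0% of c subunit tags in the AVC, 42.3% in OFT, 2.74% in atria and 2.84% in ventricles. *Atp5g3* made up 40.4%, 44.1%, 90.9% and 93.8% in the same order, and 73.0% in the null. *Atp5g1* had 474 TPM in the AVC, 426 in OFT, 423 in atria, 477 in ventricles and 609 in the null and was called in no comparison. *Atp5g2* was 5.67-fold higher in the AVC than in the chambers (edgeR adjusted p = 0.0044) while *Atp5g3* was lower, and the main tags of both start with G. The *Atp5g2* tag also matches the transcript *Gm10175*, and TMM scaling kept its call in the AVC (edgeR exact test, p = 0.0347) but not in the OFT (p = 0.0605).

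**Figure D5:**
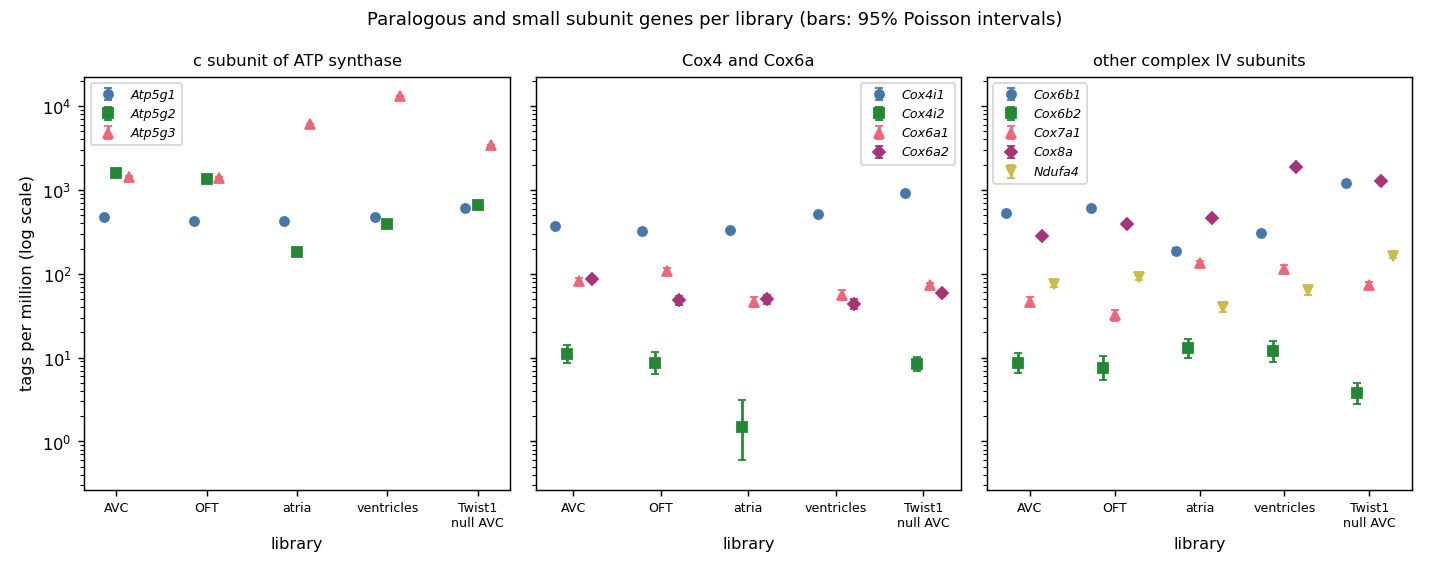
TPM on a logarithmic axis of the c subunit genes (left), *Cox4* and *Cox6a* paralogs (middle) and other complex IV genes (right) in the 5 libraries (horizontal axes), with 95% Poisson intervals. *Atp5g2* and *Atp5g3* are side by side in the AVC and OFT and lie apart in the chambers, where *Atp5g3* reaches 13130, and *Cox4i2* has no mark in the ventricles, where it is listed at 0.

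In complex I the gene with the smallest p was called higher in both the AVC and OFT. *Ndufv1*, the flavin-binding subunit that oxidises NADH, had 339 TPM in the AVC, 475 in OFT, 9.64 in atria, 20.4 in ventricles and 145 in the *Twist1* null AVC. Over the chambers it was 23.0-fold higher for the AVC and 32.2-fold for the OFT (edgeR adjusted p = 2.27e-06 and 2.69e-07), and was called in all 18 alternative settings of each comparison. *Ndufa3*, an accessory subunit, had 306 TPM in the AVC, 249 in OFT, 55.9 in atria and 54.9 in ventricles, 5.51-fold higher in the AVC. Both have main tags that do not start with T.

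Of the membrane anchors of complex II, *Sdhc* was at 258 TPM in the AVC, 318 in OFT, 16.3 in atria and 59.9 in ventricles, and *Sdhd* at 103, 144, 368 and 794 TPM. *Sdhc* was 6.97-fold higher in the AVC (edgeR adjusted p = 0.00171) and *Sdhd* 5.56-fold lower (adjusted p = 0.00497). The flavoprotein gene *Sdha* and the iron-sulphur subunit gene *Sdhb* were not called. In complex III *Uqcr11* was 23.0-fold lower in the AVC (edgeR adjusted p = 1.89e-06), *Uqcrb* 5.21-fold and the hinge protein gene *Uqcrh* 3.88-fold. The tags of the latter pair do not start with T, but both match transcripts outside the reference set.

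In complex IV *Cox7b*, *Cox5a* and *Cox8a* were called lower in the AVC, and all rest on T-starting main tags. Their other tags are few: on these *Cox5a* was at 1.32 TPM in the AVC and listed at 0 in both chambers, *Cox8a* had a log2 ratio of 1.29 and *Cox7b* one of -1.28, and neither was called. *Cox4i2*, the subunit IV isoform known from lung, was at 11.2 TPM in the AVC, 8.73 in OFT, 1.50 in atria and 8.40 in the null. It was listed at 0 in ventricles and has no T-starting main tag. Against the chambers, which held 7 of its tags, *Cox4i2* was called higher in the AVC (13.9-fold) and OFT (10.9-fold). Both calls held in all 18 alternative settings. The chamber libraries also held 215437 TPM (atria) and 46736 TPM (ventricles) of erythroid markers, against 2435 in the AVC and 3087 in OFT. With haemoglobin tags taken out of the totals, 8 genes were higher and 21 lower in the AVC, with 39.4% and 9.53% of all genes. Cardiomyocyte markers summed to 27273 TPM in the AVC, 29063 in OFT, 10355 in atria and 26265 in ventricles. Cushion mesenchyme markers were at 355 TPM in atria and 348 in ventricles, with 1 of 12 at 0 in each, against 3484 in the AVC and 4363 in OFT. The part of these cell types in the differences was not tested.

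The muscle isoforms *Cox6a2* and *Cox7a1* of complex IV were listed in every library at low levels, while *Cox8b* was listed in none. *Cox6a2*, the heart and skeletal muscle isoform, was at 86.9 TPM in the AVC, 48.4 in OFT, 49.5 in atria, 43.8 in ventricles and 59.2 in the *Twist1* null AVC. Its ubiquitous partner *Cox6a1* was at 81.0, 109, 45.6, 55.6 and 73.8 TPM, so that *Cox6a1* made up 48.2% of their tags in the AVC and 69.2% in OFT. Neither was called in any of the 4 comparisons over all tags. On tags that do not start with T *Cox6a1* was called higher in the AVC and OFT than in the chambers (log2 ratios of 4.09 and 4.55). The chambers held 10 such tags, and on these it was called lower in the ventricles than in the atria. *Cox7a1*, another muscle isoform, was at 46.4 TPM in the AVC, 31.9 in OFT, 133 in atria, 115 in ventricles and 73.9 in the null, and was called lower in the OFT than in the chambers (3.90-fold, edgeR adjusted p = 0.0269). *Cox4i1* was at 373, 325, 329, 514 and 929 TPM and *Cox6b1* at 538, 611, 189, 306 and 1209 TPM, both highest in the null. *Cox6b2*, the testis isoform, stayed between 3.78 and 12.9 TPM, and *Ndufa4* between 40.3 and 162 TPM.

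Between the chambers few genes were called. Of 88 genes 5 were higher in the ventricles than in the atria (11.1% of all 10705 genes tested) and 1 was lower (9.03%), although the level was higher in the ventricles for 79 of 89 genes (50.4% of all genes with tags). Erythroid markers were at 215437 TPM in atria and 46736 in ventricles and cardiomyocyte markers at 10355 and 26265 TPM, and their part in the differences was not tested. The median log2 ratio was 0.65 for the respiratory chain genes and 0.31 for all genes, and TMM scaling lowered all ratios by 0.32 and left 3 higher and 1 lower (9.16% and 10% of all genes). With haemoglobin tags out of the totals the medians were 0.36 and 0.02, and 3 genes were higher and 1 lower (9.3% and 9.79%). Without T-starting tags 5 were higher and 3 lower (10.4% and 11.3%), and after adjustment 1 was higher and 0 lower (3.47% and 2.8%). *Cox8a* was at 457 TPM in atria and 1889 in ventricles, 4.14-fold higher (edgeR exact test, p = 0.00603, adjusted p = 0.0739). *Sdhc* was 3.67-fold higher (p = 0.0141, edgeR exact test). Both were also called under TMM scaling. Both were called on tags that do not start with T as well, where *Cox8a* was at 2.84 TPM in ventricles and listed at 0 in atria. *Ndufc2* and *Cox7a2l*, a supercomplex factor gene, were 2.85-fold and 3.02-fold higher at the deposited totals. Both have T-starting main tags, *Cox7a2l* no other tag in this test, and both calls were lost under TMM scaling (edgeR exact test, p = 0.110 and 0.0876). *Uqcr10* was called higher but was at 4.02 TPM in ventricles and listed at 0 in atria, and *Cox4i2*, called lower, was at 1.50 TPM in atria, so that each rests on very few tags.

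Other nuclear genes of mitochondria were taken as lists for comparison, to be read against the 11.9% higher and 12.7% lower of all genes in the null. Of 13 genes of the tricarboxylic acid cycle 1 was higher and 1 lower in the *Twist1* null AVC than in the AVC, with *Cs*, citrate synthase, at 455 and 628 TPM and *Mdh2*, malate dehydrogenase, at 391 and 219 TPM. Of 43 assembly factors outside the name rule 6 were higher and 4 lower, led by *Higd2a* at 382 and 259 TPM, *Cox17*, a copper chaperone gene, at 187 and 145 TPM, and *Uqcc2* at 59.9 and 158 TPM. Of 15 genes of ATP export and the outer membrane 5 were higher and 1 lower, with the phosphate carrier gene *Slc25a3* at 1505 and 935 TPM, not called, like the ADP/ATP carrier gene *Slc25a4* at 1340 and 835 TPM and *Atpif1*, the ATP synthase inhibitor, at 1156 and 557 TPM. Of 76 mitochondrial ribosomal protein genes 5 were higher and 9 lower, led in level by *Mrpl52*, *Mrpl30* and *Mrps7*. Of 15 regulators of mitochondrial biogenesis 1 was higher and 1 lower, with *Yy1* at 52.5 and 106 TPM, *Tfam* at 51.0 and 114 TPM, and *Gabpb1* at 71.6 and 32.3 TPM. In the AVC against the chambers, where 43.4% of all genes were higher and 8.12% lower, 3 cycle genes were higher and 2 lower, among the latter *Suclg1*, a subunit of succinyl-CoA ligase, at 86.9 TPM in the AVC, 643 in atria and 752 in ventricles. In the same comparison 13 of 76 ribosomal protein genes were higher and 9 lower, 12 and 4 of 42 assembly factors, 2 and 3 of 15 export genes, and 5 and 1 of 15 regulators. Under TMM scaling, where 25.6% of all genes were higher and 17.5% lower, these counts were 2 and 4 for the cycle, 3 and 27 for the ribosomal protein genes, 7 and 11 for the assembly factors, 0 and 6 for the export genes, and 3 and 4 for the regulators. In the null TMM scaling called 14.9% of all genes higher and 9.36% lower. It gave 9 and 9 of the ribosomal protein genes, 10 and 3 of the assembly factors and 5 and 0 of the export genes. The counts of the other lists stayed as they were. Without T-starting tags the null had 2 and 1 of 15 export genes, 2 and 2 of 13 cycle genes, 7 and 4 of 38 assembly factors, 5 and 8 of 73 ribosomal protein genes, and 1 and 2 of 15 regulators, with 11.2% and 13.3% of all genes.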

How the data were processed

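The deposited values are counts of each tag type. The authors cut filtered reads to 21 bases and listed tag types seen more than 5 times in a library, so a gene listed at 0 may have up to 5 tags of each type. The labels name mm9. Tags were matched here to every NlaIII site of 33363 RefSeq-linked GENCODE M21 transcripts (24303 genes, GRCm38) with Python 3.11.15, and sense tags of 1 gene were summed. Between 70.7% and 74.5% of tags matched 1 gene.

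Libraries were compared with edgeR 4.0.16 in R 4.3.3 (two-sided exact test, dispersion fixed at 0.12 as in the study's methods, totals of listed tags as library sizes). Because each group has 1 library, p-values compare libraries, not conditions. In simulated data the test recovered 73% of 4-fold changes for the null against the AVC, and it called 4.80% of unchanged genes. These counts were drawn at the dispersion of 0.12 that the test assumes, and changed genes were taken above a minimum expected count. The values therefore check the procedure and do not measure the rate of false calls in these libraries.

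The genes and lists were chosen with earlier results of these data known. Genes named are the 3 of highest mean level in each complex, members with tissue-restricted paralogs, the 5 of smallest p in each direction of each comparison, and members listed at 0 in 1 library and at 20 TPM or more in another. 1 member is not reported here. Others named were chosen after their values were seen. Alternatives changed the scaling (TMM, DESeq2 1.42.0 size factors), totals, dispersion, tag limits, reference library and tag sets.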

Additional observations from a re-analysis of the deposited data

Results flagged for a closer look

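Tags shared by a respiratory chain gene and another reference gene were left out of all sums, and each was above the level that listing requires. The tag of *Cox7c* and *Gm10012*, which starts with T, had 35.1 TPM in the AVC, 45.4 in OFT, 384 in atria, 529 in ventricles and 203 in the *Twist1* null AVC. It was the only listed tag of the complex IV gene *Cox7c*. The tag of *Ndufb8* and *1700028B04Rik* was listed at 0 in the AVC and had 2.09 TPM in OFT, 10.1 in atria, 11.4 in ventricles and 4.32 in the *Twist1* null AVC.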

How the results depend on the processing

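With 1 library per group, each count of calls depends on the fixed dispersion. At a dispersion of 0.05 the null had 25 genes higher and 21 lower than the AVC (18.8% and 23.2% of all genes), the AVC 20 and 29 against the chambers (53.2% and 12.2%), the OFT 17 and 31 (49.9% and 13.8%), and 23 were higher in the ventricles than in the atria (19.8%). At 0.4 these counts were 2 and 0 (3.90% and 2.36%), 3 and 3 (20.3% and 2.70%), 3 and 1 (19.4% and 3.35%), and 1 and 0 (4.03% and 4.28%). With adjusted p under 0.05 the null had 7 and 2, and the ventricles 1 and 0. DESeq2 size factors and TMM scaling gave the same counts. They were 21 higher and 4 lower in the null (with DESeq2 14.8% and 9.43% of all genes) and 6 and 37 in the AVC (25.2% and 17.9%). In the OFT they were 3 and 36 (26.0% and 17.9%), and in the ventricles 3 and 1 (9.17% and 9.91%). Without T-starting tags the null had 10 higher and 4 lower, and 3 were lower in the ventricles, where *Cox6a1* reversed to -6.37. With TMM scaling as well, the AVC had 30 lower (16.5% of all genes), the null 2 (10.7%) and the ventricles 3 (11.5%), and *Cox6a1* was at -6.40.

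Against the atria alone the AVC and OFT each had 18 higher, and *Uqcr10* in the OFT reversed to 5.75. Totals of all sequenced tags gave 17 higher in the OFT (49.7% of all genes), 24 higher and 3 lower in the null (16.5% and 8.05%) and 3 higher in the ventricles (10.1%), and totals without haemoglobin tags also gave 3 higher in the ventricles. The gene lower in the ventricles (9.03% of all genes) became 2 with the 3′-most site only (10.4%). It became 0 with 5 tags for each tag type not listed (1.44%), with at least 50 tags per gene (1.71%), or with more than 10 tags per tag type (10.1%). Putting in 5 tags also lowered the share of all genes higher in the OFT from 40.6% to 25.6%, and that in the AVC likewise. In the null that share fell from 11.9% to 5.89%, where 16 respiratory chain genes were higher. Of the called log2 ratios, those that reversed on tags not starting with T were *Atp5e* in the null (-0.26, or -0.02 with TMM scaling), *Cox5a* (6.18 in the AVC and 7.30 in OFT, or 5.78 and 6.91 with TMM scaling) and *Cox8a* in the AVC (1.29, or 0.45 with TMM scaling). Of the ratios not called, 10 changed sign in the null, 7 in the AVC, 6 in OFT and 16 in the ventricles on those tags. With the 3′-most site only, *Cox7b* reversed to -1.72 in the null and to 0.69 in OFT, and *Atp5e* to -1.66 and *Ndufaf4* to -1.22 in the null. Except where an alternative's own construction shows it, the cause was not tested. Of the values called for named genes 849 were classed as the same under an alternative, 112 lost the call and 8 changed sign. Leaving out tags shared with transcripts outside the reference set, an alternative chosen after seeing the data, moved no count by more than 1.5 times. The reversed values of *Cox5a*, *Cox6a1* and *Uqcr10* are fitted against a library or group listed at 0 and are no measure of size. No paired analysis was possible because each group has 1 library.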

Other observations

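Subunits encoded in mitochondrial DNA could be followed for 7 of 13 genes with tags of their own, and they had a different order of libraries from the nuclear genes. Their summed level was 22019 TPM in the AVC, 29554 in OFT, 7225 in atria, 8059 in ventricles and 9429 in the *Twist1* null AVC. *mt-Nd4*, a proton-pumping subunit of complex I, was at 13072 TPM in the AVC, 15402 in OFT, 2564 in atria, 2672 in ventricles and 3364 in the null. *mt-Nd2*, another, was at 4643, 7619, 625, 494 and 912 TPM in the same order. *mt-Atp6*, the ATP synthase subunit next to the c ring, was at 3830, 6010, 3811, 4645 and 4697 TPM and so varied much less. These tags scarcely started with T (0.0471% in the AVC and 0.480% in the null). They were not tested, and many mitochondrial tags could not be given to 1 gene.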
